A study of Mus musculus with 48 samples.

Results

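The genes described here are 33 mouse genes of mitochondrial fatty acid oxidation and ketone body use, chosen by name from a list, among 55450 genes in each of 2 expression tables. They were followed in inguinal white adipose tissue (iWAT) preadipocytes at days 0, 3, 6 and 9 and in mouse embryonic fibroblasts (MEFs) at days 0, 4, 8 and 12 of differentiation into adipocytes. At each day, 3 libraries came from wild-type (WT) cells and 3 from cells of Hmgn1-/- and Hmgn2-/- mice (DKO), which lack a pair of nucleosome-binding proteins in every cell, 48 libraries in all. All mice were C57BL/6, the preadipocytes were from young adult animals, and the MEFs were from embryos in mid-gestation. Both genotypes received the same differentiation medium with insulin, dexamethasone, IBMX (a phosphodiesterase inhibitor), T3 (thyroid hormone) and rosiglitazone (a PPARγ agonist), and then a maintenance medium with insulin and T3. The first medium was given for 4 days to preadipocytes and for 8 days to MEFs, so days 6 and 9 of preadipocytes and day 12 of MEFs lie after the change of medium. Day 0 of both cell types is before the medium was added. Whether the 3 libraries of a group came from separate animals is not given in the labels, and p-values then measure only the spread between these libraries.

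In mitochondrial fatty acid oxidation, a fatty acid is first activated to an acyl-CoA and passed to carnitine by carnitine palmitoyltransferase 1, the step at which entry into the mitochondrion is controlled. The acyl-CoA is then shortened in cycles of dehydrogenation, hydration, a second dehydrogenation and thiolysis, and the electrons of the first step leave through the electron transfer flavoprotein. Ketone bodies made by the liver are turned back to acetyl-CoA by a short chain of enzymes in other tissues. Brown and beige adipocytes burn fatty acids to make heat, whereas white adipocytes mainly store them.

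By role, 9 of the genes activate fatty acids or acetate or act at entry (Acsl3, Acsl4, Acsl5, Acss1, Cpt1a, Cpt1b, Cpt2, Crat and Mlycd). Another 7 are acyl-CoA dehydrogenases of fatty acids (Acadvl, Acadl, Acadm, Acads, Acad9, Acad10 and Acad11), and 2 act on branched-chain acyl-CoAs (Acadsb and Ivd). The electron transfer flavoprotein and its oxidoreductase account for 3 (Etfa, Etfb and Etfdh). The later steps of the cycle account for 5 (Echs1, Hadh, Hadha, Hadhb and Acaa2). Eci1 and Decr1 handle unsaturated fatty acids, Acot2 and Acot13 are acyl-CoA thioesterases, and Bdh1, Oxct1 and Acat1 use ketone bodies.

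Hadha and Hadhb encode the α and β subunits of the mitochondrial trifunctional protein, which carries out the last 3 steps of the cycle on long chains. They stand head to head on chromosome 5 of mm10. Hadha lies on the minus strand (chr5:30118304-30155162) and Hadhb on the plus strand (chr5:30155248-30184593), and the 85 bases between their annotated starts are the only DNA that separates them. This stretch is shown because both genes are read outwards from it. Its sequence is taken from the RefSeq promoter of Hadhb (GRCm38.p6, plus strand, chr5:30155163-30155247), 5′ to 3′, with GC boxes (GGGCGG or its complement) in capitals:
Hadha-Hadhb: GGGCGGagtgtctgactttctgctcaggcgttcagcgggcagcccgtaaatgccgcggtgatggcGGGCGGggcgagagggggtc

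It holds 69.4% G and C and 2 GC boxes. On either strand, CCAAT, the nuclear receptor half-site AGGTCA and the E-box CACGTG were not found in these letters. Among the 85 bases before the start of each of 32851 RefSeq promoters, 22.8% held a GC box, 16.4% CCAAT, 4.97% AGGTCA and 2.81% CACGTG. The RefSeq table held 27 promoters for 26 of the 33 genes, each with 250 bases before and 50 after the start. A direct repeat of AGGTCA with 1 base between (the motif bound by PPAR and RXR), and the element TCAAGGTCA bound by estrogen-related receptors, were found in 0 of these 27 on either strand. Of all 32851 promoters, 0.04% held the repeat in its exact form and 0.42% the second element, so few would be found in 27 windows.

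Libraries held between 18962500 and 36006700 counts. Levels are counts-per-million (CPM) after TMM scaling within a cell type, and a gene is called when edgeR's quasi-likelihood test gives a Benjamini-Hochberg adjusted p-value under 0.05 over all genes tested and the fold change is at least 1.5. Hmgn2 was lower in DKO than in WT cells in each comparison, from 39.5 to 40.8 CPM in the WT libraries of preadipocytes at day 9 to 0 in the 3 DKO libraries. Hmgn1 transcripts were still counted in DKO cells, at 72.9, 74.9 and 83.7 CPM beside 76.1, 76.9 and 80.3 CPM in WT libraries of that day. In the other comparisons the mean of Hmgn1 was lower in DKO cells. It was 93.0 CPM in DKO and 150 CPM in WT preadipocytes at day 0, and 91.1 CPM in DKO and 201 CPM in WT MEFs at day 4. A total over the whole gene does not show which exons were read. The paper states that DKO cells lacked transcripts of the deleted exons by RNA sequencing, and lacked both proteins by western blot. In MEFs, 4 libraries stood apart from their groups in adipocyte markers (Adipoq, Fabp4, Plin1, Cidec, Lpl and Pparg summed). At day 4, WT replicate 1 (5787 CPM) and DKO replicate 3 (7186 CPM) were high beside 1883 to 4522 CPM in the others. At day 8, WT replicate 2 (3755 CPM) and DKO replicate 3 (4307 CPM) were low beside 8887 to 15358 CPM. In preadipocytes at day 9, preadipocyte and fibroblast markers summed to 4249 CPM in DKO replicate 2 and to 1579 and 2278 CPM in the other DKO libraries, beside 3821 to 4419 CPM in WT libraries. Counts of called genes in the DKO and WT comparisons of these days, and in the WT step of MEFs from day 4 to day 8, are given with and without them. Most other results that use these libraries, the summed levels among them, are given with all libraries only.

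The time course of WT cells was described first. In preadipocytes, the change came between days 3 and 6, when 27 of the 33 genes rose and 2 fell (46.6% of 16188 genes tested were called, 22.5% higher and 24.0% lower). The median log2 difference of the 33 was 2.13 and that of all genes tested 0.00. All 7 acyl-CoA dehydrogenases of fatty acids, the 3 flavoprotein genes and the 5 genes of the later steps were among the 27. Acadsb, Acsl3, Acsl5 and Bdh1 were not called. Markers of several cell types moved in the same WT libraries between days 3 and 6. Adipocyte markers went from 643 to 2554 CPM (the range over libraries) to 19595 to 23738 CPM, and preadipocyte and fibroblast markers from 5894 to 7358 CPM to 2274 to 2736 CPM. The 5 macrophage markers went from 11.1 to 32.1 CPM to 1028 to 1927 CPM. Their part in the rise of the 33 genes was not tested. These are bulk libraries, in which more cells of a type and more RNA per cell cannot be told apart.

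**Figure D1:**
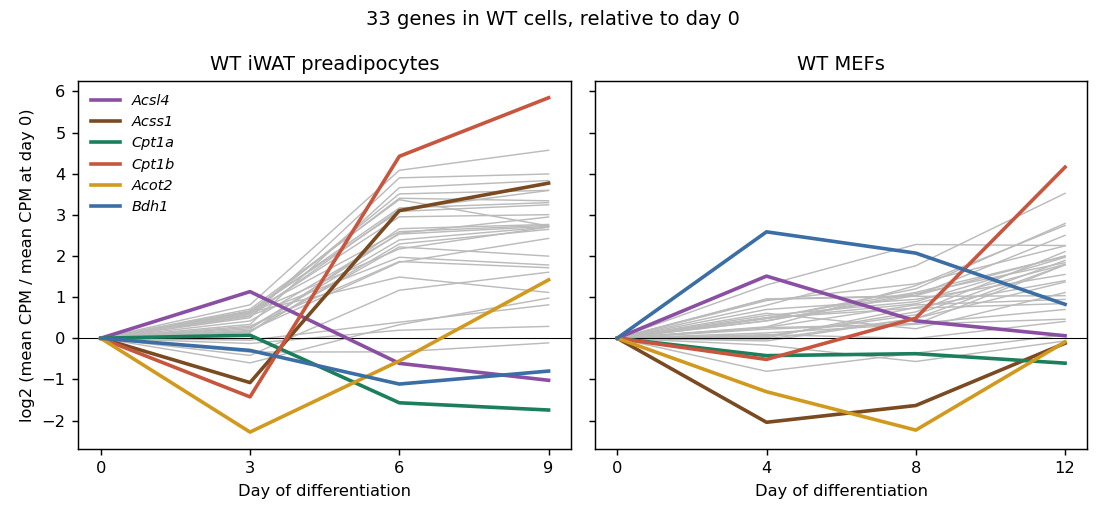
Mean CPM of each of the 33 genes in WT cells relative to day 0, on a log2 scale (y axis), by day of differentiation (x axis), for preadipocytes (left) and MEFs (right). Grey lines are the other genes, and 6 genes are coloured. Most lines rise between days 3 and 6 in preadipocytes and between days 8 and 12 in MEFs, whereas Cpt1a ends below its day 0 level in both.

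Cpt1b, the carnitine palmitoyltransferase 1 known from muscle and brown fat, changed most. Its level was 1.97, 2.06 and 1.63 CPM in the 3 WT libraries at day 0 and 0.440, 1.07 and 0.600 CPM at day 3. It was 35.2, 47.9 and 38.3 CPM at day 6 and 109, 103 and 113 CPM at day 9. No library of one of these days overlapped with a library of the next day. The log2 difference was -1.43 ± 0.25 (SE) from day 0 to day 3, 5.86 ± 0.21 from day 3 to day 6 and 1.42 ± 0.14 from day 6 to day 9 (edgeR adjusted p = 0.000937, 7.46e-09 and 7.81e-05).

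Cpt1a, known as the liver isoform, went the other way. WT libraries held 109, 114 and 144 CPM at day 0 and 130, 130 and 126 CPM at day 3, and then 43.6, 36.1 and 44.0 CPM at day 6. It fell by 1.62 on the log2 scale (SE 0.12, edgeR adjusted p = 3.59e-07) between days 3 and 6. Per length of merged exons, Cpt1b made up 3.45% ± 0.823 (SD, n = 3) of Cpt1a and Cpt1b together in WT preadipocytes at day 0, 1.22% ± 0.549 at day 3. It made up 68.7% ± 5.56 at day 6 and 87.1% ± 0.992 by day 9. With the length of the longest coding transcript in place of merged exons, the share at day 6 was 59.1%.

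Acsl4, an acyl-CoA synthetase with a preference for arachidonate, was the other gene to fall after day 3, by 1.72 on the log2 scale (SE 0.11, edgeR adjusted p = 1.69e-07). It had risen before: WT libraries held 138, 153 and 139 CPM at day 0 and 343, 334 and 266 CPM at day 3. At day 6 they held 99.8, 83.2 and 98.7 CPM, below every library of day 0. In MEFs it also rose and then fell, from 53.4, 53.5 and 51.2 CPM at day 0 to 101, 186 and 164 CPM at day 4 and 62.3, 89.8 and 59.9 CPM at day 8, where it stayed above every library of day 0. The rise to day 4 (2.82-fold, edgeR adjusted p = 0.000191) and the fall to day 8 (log2 -1.08 ± 0.21, adjusted p = 0.0353) were both called, though the second was lost in 6 of 12 alternatives, among them the fit of the 6 libraries of these days (adjusted p = 0.329).

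Acot2, a thioesterase of the mitochondrial matrix that releases fatty acids from CoA, fell first and rose later. WT preadipocytes had 13.8, 13.0 and 9.28 CPM at day 0, 2.42, 2.94 and 2.07 CPM at day 3, 7.22, 9.53 and 7.87 CPM at day 6, and 31.5, 30.6 and 34.5 CPM at day 9. Each of the 3 steps was called (log2 -2.28, 1.75 and 1.97, edgeR adjusted p = 4.29e-06, 5.38e-06 and 2.76e-05). Oxct1, which transfers CoA to acetoacetate in ketone body use, followed a similar but smaller course, with means of 155 CPM before the medium, then 102, 194 and 305 CPM by days 3, 6 and 9 and log2 steps of -0.60, 0.95 and 0.65. The first of these is close to 1.5-fold and was lost in 6 of 12 alternatives. Acss1, the mitochondrial acetyl-CoA synthetase, was at a mean of 0.570 CPM at day 0 and 0.270 CPM at day 3, and 4.89 CPM at day 6. Its fall to day 3 was lost in 4 of 12 alternatives (adjusted p up to 0.225), and its rise from day 6 to day 9 in 5 of 12 (adjusted p up to 0.0946).

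Between days 0 and 3, 15 of the 33 genes were called in WT preadipocytes, 11 higher and 4 lower (24.7% of all genes tested, 11.1% higher and 13.6% lower). Beside Acsl4, those with the smallest p-values among the 11 were Acad9 (log2 0.64 ± 0.07), Acad11 (0.62 ± 0.08) and Acadl (0.71 ± 0.11). Acot2, Oxct1, Cpt1b and Acss1 were the 4 that fell. Between days 6 and 9, 5 were called (14.0% of all genes tested, 8.80% higher and 5.22% lower). Acot2, Cpt1b, Oxct1 and Acss1, the genes that had fallen at day 3, were the 4 that rose. Acadl, the long-chain acyl-CoA dehydrogenase, fell by 0.64 on the log2 scale (SE 0.11, edgeR adjusted p = 0.00156), from 705, 827 and 733 CPM to 475, 493 and 488 CPM.

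Levels per length set the order of the genes among themselves. In WT preadipocytes at day 6, the highest were Acadl at 377 ± 32.1 CPM per kb of merged exons (SD, n = 3), Acadvl at 261 ± 35.2, Etfb at 242 ± 39.1 and Acaa2, the medium-chain thiolase, at 201 ± 32.2. The ranges of mean ± SD of Acadvl, Etfb and Acaa2 overlapped. Bdh1 (0.775 CPM per kb), Acss1 (1.19) and Acad10 (2.08) were lowest. At day 0, Etfb (52.1), Oxct1 (41.9) and Acadl (36.5) had been highest. The order depends on the length used, since merged exons include retained introns. With the longest coding transcript at day 6, Acadl, Acadvl and Etfb kept the first 3 places, Hadhb moved from place 8 (88.6 CPM per kb) to place 4 (285), Acadm from 6 to 5 and Acaa2 from 4 to 7.

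In WT MEFs, the main step was the last one. Between days 8 and 12, 20 of the 33 genes rose and 1 fell (21.2% of 16359 genes tested were called, 12.5% higher and 8.73% lower), with a median log2 difference of 0.88 beside 0.00 over all genes. Adipocyte markers of the same libraries went from 3755 to 9083 CPM at day 8 to 15839 to 16003 CPM at day 12, and their part was not tested. Cpt1b went from 2.95, 1.46 and 3.60 CPM to 35.0, 32.9 and 34.2 CPM (log2 3.66 ± 0.52, edgeR adjusted p = 0.000386). Acot2 went from 3.81, 3.01 and 3.42 CPM to 16.4, 16.1 and 12.7 CPM (2.14 ± 0.19, adjusted p = 1.07e-05). Both genes rose by more than the median of the 33. Acad11, an acyl-CoA dehydrogenase of very long chains (0.96 ± 0.07), Acss1 (1.51 ± 0.16) and Acads, the short-chain dehydrogenase (1.44 ± 0.16), had the other smallest p-values.

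Bdh1, which interconverts the ketone bodies β-hydroxybutyrate and acetoacetate, was the 1 gene that fell, by 1.25 on the log2 scale (SE 0.35, edgeR adjusted p = 0.0150). It had risen by day 4, from 1.57, 1.68 and 2.83 CPM to 9.17, 13.6 and 13.8 CPM (log2 2.58 ± 0.36, adjusted p = 0.000148), and was at 5.16, 13.7 and 6.71 CPM at day 8 and 3.47, 4.00 and 3.31 CPM at day 12. Its high value at day 8 is that of WT replicate 2, the library low in adipocyte markers, and without that library the fall to day 12 was not called (log2 -0.67, adjusted p = 0.0584). It was also not called without WT replicate 1 or 3 of day 12.

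From day 0 to day 4, 8 of the 33 genes rose and 3 fell in WT MEFs (33.2% of genes tested called, 14.8% higher and 18.4% lower). Acad11 (log2 0.94 ± 0.07), Ivd, the isovaleryl-CoA dehydrogenase of leucine breakdown (0.93 ± 0.08), Bdh1 and Acsl4 had the smallest p-values among the 8. Acss1 (-2.05 ± 0.16), Acot2 (-1.32 ± 0.18) and Oxct1 (-0.82 ± 0.17) were the 3 that fell, and these 3 were also among the 4 that fell in preadipocytes by day 3. Between days 4 and 8, 2 of the 33 were called, both lower, Acot2 and Acsl4 (1.72% of genes tested called, 1.03% higher and 0.697% lower). That count is set by single libraries: it was 18 without WT replicate 1 of day 4 (14.4% of genes tested) and 19 without WT replicate 2 of day 8 (15.3%), the libraries that stood apart. Without any 1 of the other 4 libraries of these days it was 0 (0.0896% to 0.275%). Cpt1b was 3.23% ± 0.308 (SD, n = 3) of Cpt1a and Cpt1b per length in WT MEFs at day 0, 6.00% ± 2.96 at day 8 and 47.7% ± 1.57 at day 12.

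**Figure D2:**
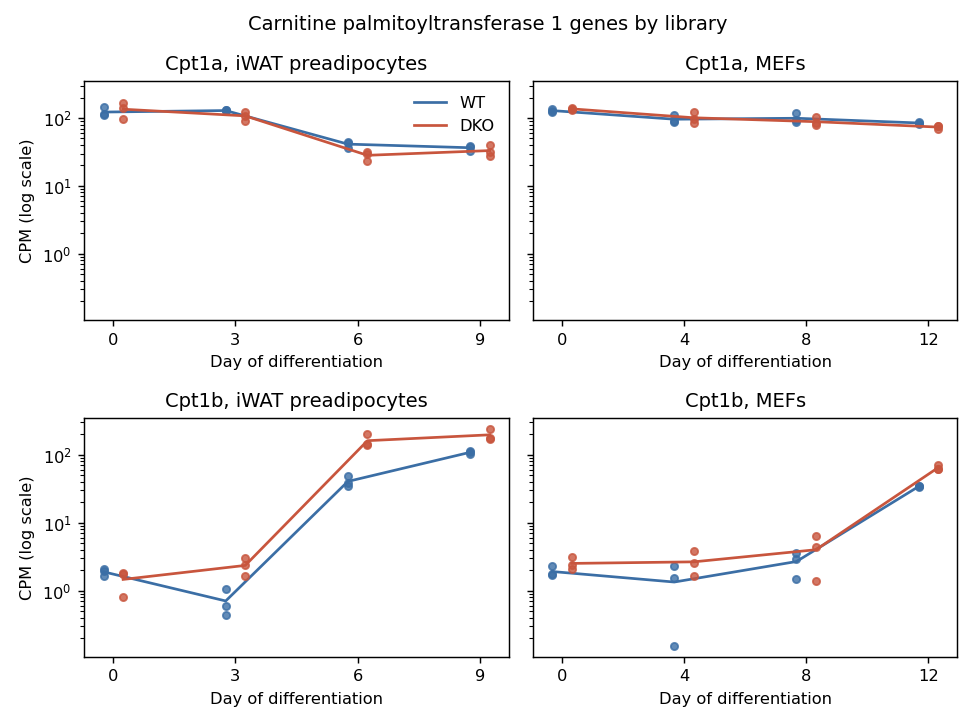
Cpt1a (top) and Cpt1b (bottom) in CPM on a log scale (y axis) by day of differentiation (x axis) in preadipocytes (left) and MEFs (right). Points are single libraries and lines join the group means of 3 WT (blue) and 3 DKO (red) libraries. Cpt1b rises most between days 3 and 6 in preadipocytes and between days 8 and 12 in MEFs. It is higher in DKO libraries at preadipocyte day 6 (141 to 199 CPM) than in WT libraries (35.2 to 47.9 CPM).

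The comparison of DKO with WT cells asks which of these genes differ between the genotypes, and when. In preadipocytes, 0 of the 33 genes were called at day 0 (0.218% of 15123 genes tested; edgeR gave 4 an unadjusted p under 0.05, beside 7.86% of all genes) and 20 were at day 6, all higher in DKO cells (11.6% of 14694 genes tested were called, 5.03% higher). At day 9, 3 were called, again higher (1.24%, and 0.469% higher). Over the 33 genes the median log2 difference was 0.06 at day 0, 0.60 at day 6 and 0.43 at day 9, beside medians between -0.01 and 0.00 over all genes.

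**Figure D3:**
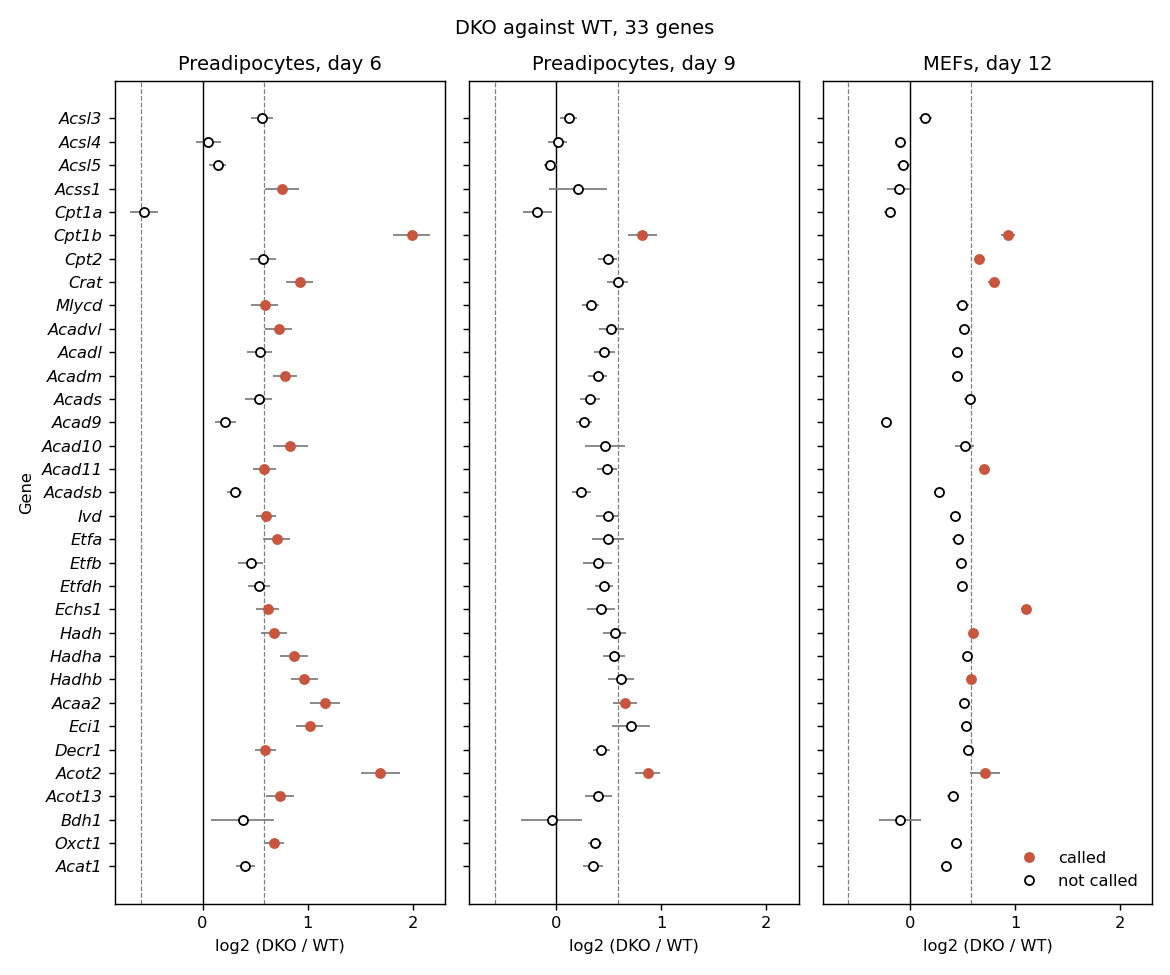
Log2 of DKO over WT from edgeR's fit (x axis) with its standard error (bars) for the 33 genes (y axis, ordered by role) in preadipocytes at days 6 and 9 and in MEFs at day 12. Filled points are called genes, open points are not, and dashed lines mark a 1.5-fold difference. At preadipocyte day 6, Cpt1b is farthest to the right (1.99) and Cpt1a is the 1 gene to the left of 0 (-0.56).

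Cpt1b was the gene with the largest difference at day 6, with 141, 142 and 199 CPM in DKO libraries beside 35.2, 47.9 and 38.3 CPM in WT libraries. Every DKO library was above every WT library, by a log2 difference of 1.99 ± 0.17 (SE, edgeR adjusted p = 0.00169). Cpt1a was the only 1 of the 33 with a difference below 0. It had 29.9, 31.4 and 23.4 CPM in DKO libraries beside 43.6, 36.1 and 44.0 CPM in WT libraries, a log2 difference of -0.56 ± 0.13 (adjusted p = 0.0204) that is just under 1.5-fold. The share of Cpt1b per length was 92.5% ± 2.20 (SD, n = 3) in DKO and 68.7% ± 5.56 in WT cells at day 6. An exact permutation test of the share (two-sided, 3 against 3) gave p = 0.1, the smallest it can give. At day 3 the shares were 4.68% ± 1.16 in DKO and 1.22% ± 0.549 in WT cells, and at day 9 they were 92.8% ± 2.25 and 87.1% ± 0.992.

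Acot2 differed next most. DKO libraries had 23.0, 22.9 and 33.7 CPM and WT libraries 7.22, 9.53 and 7.87 CPM at day 6 (log2 1.69 ± 0.18, edgeR adjusted p = 0.00277). Acot13, the other thioesterase, was also called (0.74 ± 0.13, adjusted p = 0.00977). Both thus were higher in DKO cells, and the WT libraries of day 6 lay below all DKO libraries for Acot2 and for Acot13.

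Among the later steps of the cycle all 5 genes were called at day 6. Acaa2 had 582, 792 and 692 CPM in DKO and 268, 360 and 286 CPM in WT libraries (log2 1.17 ± 0.14, edgeR adjusted p = 0.00351). Hadhb had 994, 1155 and 1297 CPM in DKO and 529, 662 and 562 CPM in WT libraries (0.97 ± 0.13, adjusted p = 0.00442). Its partner Hadha had 892, 1048 and 1159 CPM in DKO and 495, 634 and 565 CPM in WT libraries (0.87 ± 0.13, adjusted p = 0.00582). Both subunits of the trifunctional protein were thus higher in DKO cells by a similar amount. Hadh, the dehydrogenase of shorter chains, and Echs1, the enoyl-CoA hydratase, differed by 0.68 ± 0.12 and 0.62 ± 0.11. For Echs1 the call was lost in 3 of 12 alternatives.

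The pair read from the stretch printed above did not keep a fixed ratio. Hadhb over Hadha in CPM was 0.644, 0.602 and 0.619 in WT preadipocytes at day 0, 0.750, 0.742 and 0.756 at day 3, 1.07, 1.05 and 0.995 at day 6 and 1.16, 1.15 and 1.14 at day 9. WT MEFs went from 0.628, 0.612 and 0.576 at day 0 to 1.04, 0.977 and 0.967 at day 12. The ratio was thus lowest before differentiation in both cell types, with no overlap between the libraries of the first and last days. In DKO preadipocytes it was 0.555, 0.559 and 0.539 at day 0, below all WT libraries, and 1.11, 1.10 and 1.12 at day 6, above all of them. At days 3 (0.755, 0.767 and 0.810) and 9 (1.25, 1.12 and 1.23) the DKO libraries overlapped with the WT libraries. In MEFs the order at day 0 was the opposite one, with DKO ratios of 0.647, 0.951 and 0.732 above all WT libraries, and the genotypes overlapped at days 4, 8 and 12.

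Of the 2 genes for unsaturated fatty acids, Eci1 had 233, 264 and 269 CPM in DKO and 111, 154 and 112 CPM in WT libraries at day 6 (log2 1.02 ± 0.13, edgeR adjusted p = 0.00389). Decr1 differed by 0.60 ± 0.10. Crat, the carnitine acetyltransferase that buffers acetyl-CoA, had 782, 909 and 912 CPM in DKO and 401, 539 and 427 CPM in WT libraries (0.92 ± 0.13, adjusted p = 0.00455). In each of these genes the DKO and WT libraries did not overlap. Acss1 and Mlycd, the malonyl-CoA decarboxylase that relieves the block on entry, were the other called genes at activation and entry (0.75 and 0.59).

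Of the 7 acyl-CoA dehydrogenases of fatty acids, 4 were called (Acadm, Acadvl, Acad10 and Acad11) and all 7 differences were above 0, from 0.22 for Acad9 to 0.84 for Acad10. Ivd of the 2 branched-chain enzymes and Etfa of the 3 flavoprotein genes were called. Of the ketone body genes Oxct1 was (0.68 ± 0.10, edgeR adjusted p = 0.00457), whereas Acat1 had 0.41 ± 0.09 (adjusted p = 0.0197, under 1.5-fold) and Bdh1, at 2.42 to 5.98 CPM, 0.38 ± 0.30 (adjusted p = 0.385). Several calls sat close to the limit of 1.5-fold: just inside it were Acad11 (log2 0.59 ± 0.11) and Mlycd (0.59 ± 0.13), and just outside were Cpt2 (0.58 ± 0.12) and Acsl3 (0.57 ± 0.10), and the count of 20 was 11 without WT replicate 3 (4.82% of genes tested) and between 15 and 26 without 1 of the other libraries (5.90% to 12.6%).

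DKO libraries did not overlap with WT libraries, and were higher, for 28 of the 33 genes at day 6 (21.5% of all genes tested) and for 28 at day 9 (22.5%). They were all lower for 1 gene, Cpt1a, at day 6 (20.6%) and for 0 genes at day 9 (12.3%). At day 3 this held for 23 of the 32 genes tested (11.4%), although 0 of them were called (0.337% of genes tested). That count was 0 with edgeR, where 23 had an unadjusted p under 0.05 (12.2% of genes tested), 8 with DESeq2 (408 of 15119 genes in all) and 10 with the replicate number as a block (1.79%). In the same libraries adipocyte markers summed to 3337 to 4620 CPM in DKO and 643 to 2554 CPM in WT cells, and thermogenic markers to 72.0 to 86.7 CPM and 44.9 to 68.8 CPM. Their part in the result was not tested. Cpt1a was the 1 gene whose DKO libraries were all lower at day 3 (7.04%). Crat had 90.4, 117 and 103 CPM in DKO and 31.8, 49.4 and 48.1 CPM in WT libraries at day 3 (log2 1.26 ± 0.19, adjusted p = 0.0698). Cpt1b was at 1.61, 3.01 and 2.41 CPM in DKO and 0.440, 1.07 and 0.600 CPM in WT libraries (1.73 ± 0.41, adjusted p = 0.165).

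At day 9, Acot2, Acaa2 and Cpt1b were the 3 called genes. Acot2 had 56.1, 53.3 and 71.9 CPM in DKO and 31.5, 30.6 and 34.5 CPM in WT libraries (log2 0.87 ± 0.12, edgeR adjusted p = 0.0289). Cpt1b had 175, 172 and 242 CPM in DKO and 109, 103 and 113 CPM in WT libraries (0.82 ± 0.14, adjusted p = 0.0427). Acaa2 had 470, 483 and 616 CPM in DKO and 329, 317 and 325 CPM in WT libraries (0.65 ± 0.11, adjusted p = 0.0427). All DKO libraries were above all WT libraries in these 3 genes. Without DKO replicate 2, the library high in preadipocyte markers, 11 genes were called (9.72% of genes tested), whereas 0 were without any 1 of the WT libraries (0.134% to 0.306%) or without DKO replicate 1 (0.723%), and 2 without DKO replicate 3 (0.493%). Adipocyte markers summed to 31212 to 37913 CPM in DKO and 24428 to 25485 CPM in WT libraries at day 9. Thermogenic markers summed to 555 to 823 CPM in DKO and 272 to 324 CPM in WT libraries, and macrophage markers to 323 to 710 CPM and 771 to 1270 CPM. The part of these markers in the difference was not tested.

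The summed level of the 33 genes was 6801, 8386 and 7143 CPM in WT and 10853, 13095 and 13048 CPM in DKO preadipocytes at day 6, 1.66 times as much on average. WT libraries at day 9 held 8234, 8266 and 8430 CPM, and DKO libraries 11190, 10918 and 13824 CPM. The DKO libraries of day 6 were thus above the WT libraries of both days. For 29 of the 33 genes the DKO mean at day 6 was above the WT mean at day 9, the exceptions being Acsl5, Cpt1a, Acadsb and Acot2. The share of all genes for which this holds was not computed, so the count is a description only. Means were compared here, and libraries could overlap, as for Bdh1 (2.68 to 5.98 CPM in DKO at day 6, 2.56 to 4.37 CPM in WT at day 9). At day 0 the sums were 1501, 1545 and 1621 CPM in WT and 1455, 1647 and 1667 CPM in DKO libraries, which overlap. Exact permutation tests (two-sided, 3 against 3) gave p = 0.1 at days 3, 6 and 9, the smallest they can give, and p = 0.8 at day 0.

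**Figure D4:**
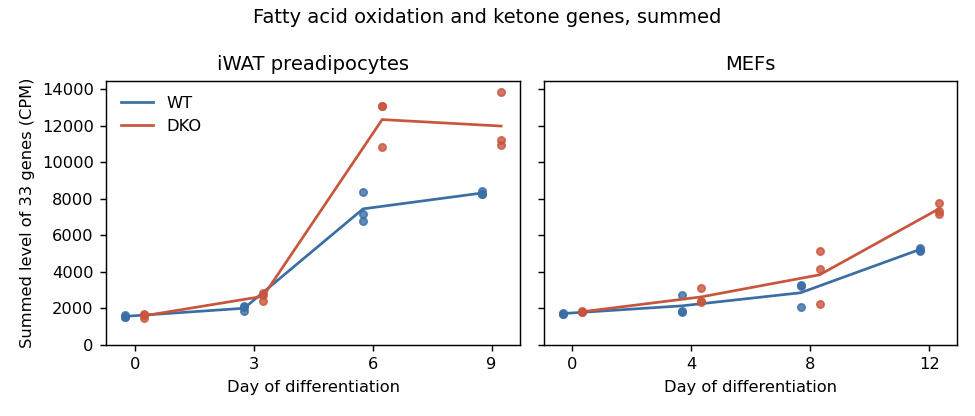
Summed CPM of the 33 genes (y axis, from 0) by day of differentiation (x axis) in preadipocytes (left) and MEFs (right), with points for single libraries and lines through the means of 3 WT (blue) and 3 DKO (red) libraries. In preadipocytes the DKO libraries lie above the WT libraries from day 3 on, and in MEFs they lie above by a small margin at day 0, overlap at days 4 and 8 and lie above at day 12.

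In DKO and WT preadipocytes at day 6, the 6 adipocyte markers summed to 19595 to 23738 CPM in WT and 25369 to 31341 CPM in DKO libraries, and 0 of the 6 were called (median log2 0.48). The 5 thermogenic markers (Ucp1, Cidea, Elovl3, Cox8b and Dio2) summed to 160 to 251 CPM (WT) and 510 to 671 CPM (DKO), with 4 called higher. Of 6 preadipocyte or fibroblast markers, 3 were lower and 1 higher (2274 to 2736 CPM in WT, 852 to 1224 CPM in DKO), and 5 macrophage markers summed to 1028 to 1927 CPM in WT and 382 to 1045 CPM in DKO libraries with 0 called. The part of these shifts in the result was not tested. Cpt1b is also known from muscle. Of 6 skeletal muscle genes, Ckm, Myh4, Myog and Myh1 were at or under 3 counts at day 6, and all 6 summed to 0.359 to 0.664 CPM in WT and 0.562 to 0.652 CPM in DKO libraries. The sum was 89.6 to 108 CPM in WT libraries at day 0 and 2.05 to 3.44 CPM at day 9.

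Genes of the same pathway outside the 33 were compared at day 6 of preadipocytes from 4 fixed lists. Membership of a list does not say whether the product of a gene favours or limits oxidation. Of 15 tested genes of 16 in a list of other mitochondrial oxidation genes, 5 were higher and 1 lower in DKO cells (median log2 0.53). Slc25a20, which carries acylcarnitines across the inner membrane, went from a mean of 144 to 249 CPM (0.78 ± 0.12, edgeR adjusted p = 0.00521), and Acacb (0.97), Pccb (0.81), Hsd17b10 (0.70) and Eci2 (0.63) were also higher. Cpt1c, the carnitine palmitoyltransferase 1 known from neurons, was the 1 that was lower, at 10.4 CPM in DKO and 20.3 CPM in WT cells (-0.99 ± 0.16, adjusted p = 0.00639). Acsl1, by count the main acyl-CoA synthetase of these cells, was at 3006 and 2725 CPM and was not called (0.13 ± 0.18, adjusted p = 0.625).

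Of the 15 peroxisomal genes, 5 were higher and 0 lower (median log2 0.48). Acox3 (0.82 ± 0.10) and Ehhadh, the peroxisomal bifunctional enzyme (0.89 ± 0.13), were among them. Acox2, an oxidase of branched chains and bile acid intermediates, went from 0.649 to 3.12 CPM (2.26 ± 0.28, edgeR adjusted p = 0.00389). Of 5 tested genes of 6 in ketone synthesis and transport, Aacs, which uses acetoacetate for lipid synthesis in the cytosol (1.11 ± 0.12), and the monocarboxylate transporter gene Slc16a1 (0.62 ± 0.12) were higher. Of 12 regulators, 3 were higher (median log2 0.35): Ppara, the fatty acid receptor that drives oxidation genes (1.47 ± 0.24, adjusted p = 0.0111), the coactivator Ppargc1a (0.79 ± 0.13) and the estrogen-related receptor Esrrg, which was low at 0.716 and 2.28 CPM (1.67 ± 0.32).

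In MEFs, 0 of the 33 genes were called on day 0 (0.102% of genes tested), day 4 (0.0905%) or day 8 (0.0595%), where edgeR gave 5, 3 and 4 unadjusted p-values under 0.05 (9.28%, 5.91% and 8.57% of genes tested). DESeq2 called 1 on each of days 0 and 4 and 0 on day 8. The shares of all genes that DESeq2 called on these days are not given here, so these counts are no result about the 33. At day 12, 8 were called, all higher in DKO cells (7.98% of 15319 genes tested, 3.92% higher), with a median log2 difference of 0.50 over the 33 beside 0.00 over all genes. DKO libraries did not overlap with WT libraries, and were higher, for 27 genes (22.8% of all genes tested) and lower for 3, Cpt1a, Acad9 and Acsl4 (23.9%).

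Echs1 led the list at day 12, with 341, 371 and 342 CPM in DKO and 162, 170 and 162 CPM in WT libraries (log2 1.10 ± 0.04, edgeR adjusted p = 1.04e-10). In MEFs it was apart before differentiation too, with 74.8, 69.5 and 79.3 CPM in DKO and 45.4, 48.6 and 48.3 CPM in WT libraries at day 0 (0.66 ± 0.08, adjusted p = 0.0753). DKO libraries were above all WT libraries at days 4 (0.91 ± 0.19) and 8 (1.07 ± 0.32) as well, with adjusted p = 0.377 and 0.486. In preadipocytes at day 0 the libraries overlapped, at 37.4, 55.9 and 57.4 CPM in DKO and 49.8, 39.4 and 52.9 CPM in WT cells (0.08 ± 0.20, adjusted p = 0.946). The difference between the cell types was not tested. Echs1 overlaps Paox, which lies on the opposite strand, and Cpt1b overlaps Gm44502 on its own strand, so reads of the latter pair may have been split between them. The same limit holds for Etfb (with Gm45233), Acad11 (with Gm28305) and Acsl3 (with Utp14b), which also overlap protein-coding genes on their own strand.

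**Figure D5:**
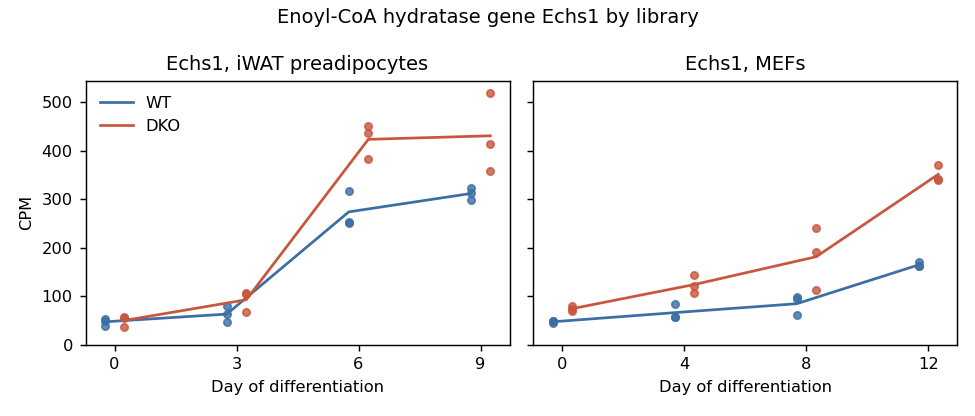
Echs1 in CPM (y axis, from 0) by day of differentiation (x axis) in preadipocytes (left) and MEFs (right), with points for single libraries and lines through the means of 3 WT (blue) and 3 DKO (red) libraries. In MEFs the DKO libraries lie above the WT libraries at every day, whereas in preadipocytes they overlap at days 0 and 3.

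The other called genes of MEFs at day 12 were Cpt1b, Crat, Acot2, Acad11, Cpt2, Hadh and Hadhb. Cpt1b had 62.2, 70.6 and 60.8 CPM in DKO and 35.0, 32.9 and 34.2 CPM in WT libraries (log2 0.93 ± 0.06, edgeR adjusted p = 2.65e-08). Acad11 had 174, 197 and 180 CPM in DKO and 114, 113 and 113 CPM in WT libraries (0.71 ± 0.05, adjusted p = 2.48e-08). Hadh had 272, 298 and 280 CPM in DKO and 186, 187 and 190 CPM in WT libraries (0.60 ± 0.04, adjusted p = 4.43e-08). Each of these 3 had no overlap between genotypes. Hadhb (0.59 ± 0.05), at the limit of 1.5-fold, was not called in 8 of 12 alternatives, and Hadh in 4 of 12 (log2 down to 0.55). In 1 fit over all days of MEFs, Cpt1b (adjusted p = 0.284) and Hadh (0.320) were not called, and the count of called genes was 2 (1.23% of genes tested).

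In DKO MEFs at day 12, 27 of the 33 genes had differences above 0 and 6 below (50.1% of genes tested were above). None of the 6 was called. Cpt1a and Acad9, a dehydrogenase that also serves the assembly of complex I, were among the 6, under 1.5-fold. Cpt1a had 75.0, 68.8 and 76.8 CPM in DKO and 85.1, 87.8 and 80.8 CPM in WT libraries (log2 -0.19 ± 0.05, edgeR adjusted p = 0.00719), and Acad9 differed by -0.23 ± 0.05 (adjusted p = 0.00191). The share of Cpt1b per length was 66.5% ± 3.06 (SD, n = 3) in DKO and 47.7% ± 1.57 in WT cells (exact permutation test, p = 0.1, the smallest it can give). The summed level of the 33 genes was 7184, 7788 and 7338 CPM in DKO and 5285, 5217 and 5144 CPM in WT libraries (exact permutation test, p = 0.1). DKO libraries were above all WT libraries before differentiation too, at 1796, 1774 and 1849 CPM beside 1729, 1713 and 1687 CPM at day 0 (exact permutation test, p = 0.1), 1.06 times as much on average beside 1.43 times at day 12. In the same libraries of day 12 adipocyte markers summed to 23359 to 24506 CPM in DKO and 15839 to 16003 CPM in WT cells, with 4 of 6 called higher (median log2 0.67). Thermogenic markers summed to 294 to 304 CPM in DKO and 126 to 135 CPM in WT cells. Preadipocyte and fibroblast markers were at 4725 to 4925 CPM in DKO and 6720 to 7089 CPM in WT cells, macrophage markers at 778 to 887 CPM and 1061 to 1119 CPM, and endothelial markers at 8.53 to 11.99 CPM and 14.1 to 16.3 CPM. Their part in the result was not tested.

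In the pathway lists at day 12 of MEFs, the other mitochondrial genes had 4 of 16 higher and 0 lower (median log2 0.46), Slc27a1, a fatty acid transporter (0.89 ± 0.05), Hibch (0.81), Acsl1 (0.77) and Acacb (0.61). Acsl1 was thus higher in DKO MEFs, at means of 3149 CPM in DKO and 1862 CPM in WT libraries (edgeR adjusted p = 2.38e-08). Of the 15 peroxisomal genes, Acox2 (1.24), Ehhadh (0.96) and Abcd2 (0.76) were higher (median 0.38), and of 11 regulators tested Ppara (1.13) and Ppargc1b (0.86) were (median 0.28).

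At days 4 and 8 of MEFs the counts moved with the libraries that stood apart. The fits below leave out 1 WT and 1 DKO library of the 3 in each group, a choice made after seeing the data. These libraries were picked by their adipocyte markers, whose part in the result was not tested. At day 8, Crat had 320, 227 and 70.5 CPM in DKO libraries and 149, 58.5 and 148 CPM in WT libraries. Without WT replicate 2 and DKO replicate 3, 6 of the 33 genes were called (4.00% of 15217 genes tested), all higher: Acaa2 (log2 0.99, edgeR adjusted p = 0.00118), Echs1 (1.15), Acads (0.68), Eci1 (0.64), Crat (0.86) and Acadm (0.59). At day 4, without WT replicate 1 and DKO replicate 3, Echs1 (1.01, adjusted p = 0.00942) and Etfb (0.71, adjusted p = 0.0326) were called (1.12% of 15534 genes tested). The summed levels overlapped between genotypes at both days, at 1823 to 2714 CPM in WT and 2343 to 3125 CPM in DKO cells at day 4 and at 2076 to 3246 and 2234 to 5139 CPM at day 8.

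An interaction term of genotype with day tested whether the DKO difference changed during differentiation. In preadipocytes, 12 of the 33 genes had a larger DKO difference at day 6 than at day 0 and 0 had a smaller one (3.49% of 16236 genes tested were called, 2.04% higher). Hadhb (log2 1.04 ± 0.15, edgeR adjusted p = 0.0127), Cpt1b (2.41 ± 0.37, adjusted p = 0.0146), Crat (0.77 ± 0.15, adjusted p = 0.0249) and Etfa, the α subunit of the electron transfer flavoprotein (0.80 ± 0.16, adjusted p = 0.0254), had the smallest p-values. The count was 0 without WT replicate 3 of day 6 (0.175% of genes tested). It was 2 without WT replicate 1 or 2 of day 0, WT replicate 1 of day 6 or DKO replicate 3 of day 6 (0.556% to 1.23%). It was 4 without DKO replicate 2 or 3 of day 0, 5 without WT replicate 3 of day 0 and 7 without DKO replicate 2 of day 6 (1.48% to 2.24%). Between days 9 and 0, a comparison chosen after seeing the data, 0 were called with edgeR (0.0555% of 16216 genes tested), and 16 had an unadjusted p under 0.05 (15.8% of all genes). Without DKO replicate 2 of day 9, 4 of the 33 were called (2.95% of genes tested), all with a larger difference at day 9. In MEFs, 0 of the 33 were called between day 8 and day 0, where 0 of 16374 genes were called in all and 0 of the 33 had an unadjusted p under 0.05 (5.25% of all genes). DESeq2 also called 0 of the 33 there, with 1 unadjusted p under 0.05.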

How the data were processed

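RNA was sequenced in 48 libraries of preadipocytes and MEFs. The authors trimmed reads with cutadapt 1.18 after bcl2fastq 2.17, aligned them to mm10 with STAR 2.7.0f and deposited RSEM 1.3.0 expected counts per gene in 1 table per cell type. Between 5.49% and 7.903% of the deposited estimated counts of a library were not whole, and all were rounded. The labels name polyA RNA, whereas the methods name a stranded total RNA kit.

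The 33 genes and the pathway and marker lists were chosen with earlier results of these data known. Libraries were grouped by genotype and day from their titles. Counts were filtered (filterByExpr), scaled (TMM) and tested with edgeR 4.0.16 in R 4.3.3 by its robust quasi-likelihood test. DKO and WT libraries of a day were fitted alone, WT days together, and interactions over 4 groups. P-values were adjusted by Benjamini-Hochberg over all genes tested. Genes were named in the text by role, by the smallest p-values (4 per direction), and as Cpt1a, Cpt1b, Hadha, Hadhb and Echs1, and others were named after their values were seen. Values of some genes of the pathway lists, and the counts that rest on them in the ketone list of MEFs, are not reported here. Alternatives were DESeq2 1.42.0, limma-voom 3.58.1, other scaling, filters and fold thresholds, a replicate block and leaving out libraries. Depth was 18962500 to 36006700 counts per library. Levels at or under 3 counts were taken as at the floor. Gene models were from GENCODE M21. The test was checked on simulated counts.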

Additional observations from a re-analysis of the deposited data

Results flagged for a closer look

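In preadipocytes, 12 genes had a DKO difference at day 6 that differed from that at day 0 by the interaction test (edgeR, adjusted over all genes; 3.49% of genes tested were called). On the log2 scale the change was 2.41 for Cpt1b, 1.40 for Acot2, 1.04 for Hadhb and 0.90 for Acot13. It was 0.86 for Acaa2, 0.85 for Eci1, 0.83 for Acadvl, 0.80 for Etfa and 0.78 for Acadm. It was 0.77 for Crat, 0.77 for Hadha and 0.63 for Hadh.

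In MEFs, a comparison of day 12 with day 0 chosen after seeing the data found 6 genes whose DKO difference was larger at day 12 (1.42% of genes tested were called). The log2 change was 0.84 for Crat, 0.79 for Cpt2, 0.72 for Hadha, 0.69 for Etfb, 0.63 for Hadh and 0.61 for Etfa. The same comparison of day 9 with day 0 in preadipocytes, also chosen after seeing the data, called 0 of the 33 with edgeR (0.0555% of genes tested), where 16 had an unadjusted p under 0.05, and 4 without DKO replicate 2 of day 9.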

How the results depend on the processing

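Of 1114 values of single genes under alternatives, 999 kept their direction and side of the threshold, 93 lost their call, 19 gained one and 3 changed direction. These 3 were Echs1 in preadipocytes at day 0, which was not called, with log2 values of -0.035, -0.0067 and -0.032 when WT replicate 2, DKO replicate 2 or DKO replicate 3 was left out and a range up to 0.26. The cause of these changes was not tested.

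Counts of called genes out of the 33 that moved were as follows. The share of all genes called moves with the setting too, so a count given without its share is no result about the 33. At preadipocyte day 3 (0), DESeq2 called 8, the fit with no filter 4, 1 fit over all days 9 and the replicate block 10. At day 6 (20), 4 passed an absolute log2 of 1 (4.94% of genes tested). With library size only 14 were called there, 13 higher and 1 lower in DKO cells (11.9%). With no fold threshold 29 were, 28 higher and 1 lower (21.6%). At day 9 (3), 6 passed with no fold threshold, 0 at a log2 of 1, 5 with DESeq2, 5 with no filter, 7 in 1 fit over all days and 1 with the replicate block. In MEFs at day 0 (0), DESeq2 and the fit with no filter each called 1. At day 4 (0), DESeq2 called 1 and the fit without the 2 high libraries 2. At day 8 (0), 1 fit over all days called 1 and the fit without the 2 low libraries 6. At day 12 (8), 28 passed with no fold threshold, 1 at a log2 of 1 and 2 in 1 fit over all days. With edgeR, 6480 of the 15319 genes tested had an unadjusted p under 0.05 on that day.

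For WT steps, a log2 of 1 left 4 from day 0 to 3 (15), 2 from day 6 to 9 (5), 5 from day 0 to 4 (11), 1 from day 4 to 8 (2) and 13 from day 8 to 12 (21). From day 6 to 9, 16 passed with no fold threshold and 3 with limma-voom. From day 4 to 8, DESeq2 called 5, limma-voom 1, the fit with no filter 1 and the fit of the 6 libraries 0.

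Leaving out 1 library gave 11 to 26 at preadipocyte day 6, 0 to 11 at day 9, 0 to 2 at MEF day 0 and 5 to 9 at day 12. It gave 9 to 18 for the WT step from day 0 to 3, 4 to 8 from day 6 to 9, 0 to 19 from day 4 to 8, and 0 to 16 for the preadipocyte interaction (12).

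The DKO minus WT difference of the summed level was 2508 CPM at preadipocyte day 9 and 1873 CPM at MEF day 12 with library size only, and 1989 CPM at MEF day 12 without the largest gene. At preadipocyte day 0 it ran from -5.18 to 101 CPM without 1 library. With transcript lengths, the difference in Cpt1b share was 2.33, 30.0 and 7.92 percentage points at days 3, 6 and 9.

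Replicate numbers are shared between groups, but in 0 of 8 DKO and WT comparisons did every same-numbered pair correlate above 0.1 (-0.56 to 0.43), nor in the WT steps or the planned interactions. Of DKO groups of successive days, days 0 and 3 (0.33 to 0.50) and days 6 and 9 (0.24 to 0.33) of preadipocytes did, and no DKO step between days is reported. The block was no main fit. With it, 6 genes were called in the preadipocyte interaction, a count given without the share of all genes called. At 3 libraries a group, exact tests cannot go below p = 0.1.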
